A study of Mus musculus with 9 samples.

Results

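The genes described here are 10 genes of heme breakdown and iron handling, chosen by name for what they are known to do: Hmox1, Blvra, Blvrb, Tfrc, Cd163, Slc40a1, Slc11a1, Slc11a2, Fth1 and Ftl1. All 10 were among the 23238 gene symbols counted in sorted mouse monocytes. RNA was measured by QuantSeq, which reads the 3ʹ end of transcripts, in 9 libraries. Each library came from a pool of 5 wild-type mice (female C57BL/6N, 12 weeks of age) sampled at day 1, and the 3 groups had 3 libraries each. Nor_Bl_mono were blood monocytes of untreated mice. NMO_Bl_mono and NMO_Br_mono were the blood and the brain monocytes of mice given NMO-IgG, the aquaporin-4 antibody of patients with neuromyelitis optica (NMO), together with human complement into the striatum of a single hemisphere. In all groups the sorted cells were CD45+CD11b+P2ry12-Ly6C+Ly6G-. Untreated mice had neither needle, antibody nor complement, and brain monocytes were compared only with blood monocytes, so tissue, enzyme digestion and injury cannot be told apart in that comparison.

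Phagocytes take up dying red cells and hemoglobin and break the heme down to biliverdin, carbon monoxide and iron. The iron is then held in ferritin, a shell of heavy (Fth1) and light (Ftl1) subunits, or leaves the cell through ferroportin (Slc40a1). When a cell is short of iron, iron regulatory proteins bind a hairpin in certain messages, the iron-responsive element. Binding near the 5ʹ end blocks translation of ferritin and ferroportin, while binding in the 3ʹ UTR protects the transferrin receptor message (Tfrc) from decay. Counts of 3ʹ ends read the amount of message and not its translation.

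The hairpins found in the members are shown because their place in the message differs, the 5ʹ UTR for Fth1, Ftl1 and Slc40a1 and the 3ʹ UTR for Tfrc. They were searched for in the UTRs of protein-coding transcripts (GENCODE vM21, build GRCm38, which is mm10) as a C, 5 bases, the loop CAGTGN and 5 bases that pair with the first 5, with G:T pairs allowed, on the transcript strand. The hairpin was found in 4 of the 10 members and in 160 of 21877 genes searched (0.731%). Fth1, Ftl1 and Slc40a1 had 1 each in the 5ʹ UTR and Tfrc had 4 in the 3ʹ UTR. Each sequence has 29 bases, 6 of them flanking the hairpin on each side, and capitals mark the 6 bases of the loop.
Fth1 5ʹ UTR, chr19:9982732-9982760, plus strand: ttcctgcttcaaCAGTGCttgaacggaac
Ftl1 5ʹ UTR, chr7:45459779-45459807, minus strand: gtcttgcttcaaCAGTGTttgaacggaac
Slc40a1 5ʹ UTR, chr1:45925465-45925493, minus strand: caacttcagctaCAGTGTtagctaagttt
Tfrc 3ʹ UTR, chr16:32631219-32631247, plus strand: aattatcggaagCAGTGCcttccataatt
Tfrc 3ʹ UTR, chr16:32631598-32631626, plus strand: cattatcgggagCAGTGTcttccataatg
Tfrc 3ʹ UTR, chr16:32631663-32631691, plus strand: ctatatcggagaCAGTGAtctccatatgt
Tfrc 3ʹ UTR, chr16:32631710-32631738, plus strand: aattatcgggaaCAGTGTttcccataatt
The hairpins of Fth1 and Ftl1 differed at 1 of 17 bases, which lay in the loop. A match to these letters is a description of the sequence and not a measured binding site. Hairpins with a bulge or a mismatch within the 5 pairs were not searched for, so a member with no match may still hold an element.

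Brain monocytes of NMO mice had higher mean message levels of both ferritin subunits than blood monocytes of NMO mice, a difference that passed an unadjusted but not an adjusted threshold. Fth1 was 2.08-fold higher and Ftl1 2.32-fold higher in group means of CPM (counts scaled to a common library size with TMM factors), with every brain library above every NMO blood library. In the fit across 10107 genes (edgeR's quasi-likelihood test) 9 of the 10 members had enough counts to be tested, and 0 of the 9 had a Benjamini-Hochberg adjusted p under 0.05, against 0.247% of all genes. At the study's own threshold, an unadjusted p under 0.05 and a fold change of 1.2, 2 members were higher (Fth1 and Ftl1; 1.48% of all genes) and 0 were lower (3.84% of all genes). For 3 members (Slc11a1, Fth1 and Ftl1) no brain library was as low as any NMO blood library, which held for 6.30% of all genes. The fitted difference was above 0 for 8 of the 9, with a median of 1.14 on the log2 scale, where the median of all genes was 0.05 and 51.4% of them were above 0.

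Against the mean of both blood groups, 0 members passed the adjusted threshold (0.435% of all genes), 2 passed the unadjusted threshold as higher (Fth1 and Ftl1; 2.62%) and 0 as lower (4.26%). Only Fth1 among the members had all 3 brain libraries above all 6 blood libraries (3.57% of all genes). Against Nor_Bl_mono alone, 0 members passed the adjusted threshold (0.247%), Fth1 alone was higher at the unadjusted threshold (1.75%) and 0 were lower (4.07%), while Blvra and Fth1 did not overlap with the normal blood libraries (6.07%). These comparisons share their brain libraries, and the first shares its NMO blood libraries as well, so their counts are not independent. Between the blood groups, NMO_Bl_mono against Nor_Bl_mono, 0 members passed the adjusted threshold (0% of all genes), and 0 passed the unadjusted threshold as higher (0.465%) or as lower (0.247%). DESeq2 and limma-voom also gave 0 members at the adjusted threshold between the blood groups and for NMO_Br_mono against NMO_Bl_mono. Of all 10107 genes, DESeq2 passed 69 between the blood groups and 336 for NMO_Br_mono against NMO_Bl_mono, and limma-voom 0 and 51. Against both blood groups DESeq2 and limma-voom each gave 1 member, Fth1 (adjusted p = 0.0456 with DESeq2 and adjusted p = 0.00903 with limma-voom). Of all 10107 genes, 495 passed there with DESeq2 and 122 with limma-voom. All NMO blood libraries lay above all normal ones for Slc11a2 (2.34% of all genes) and below them for Slc11a1 (4.45%). The median difference of the 9 members between the blood groups was 0.07 on the log2 scale, beside -0.16 for all genes.

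Total counts per library ranged from 7584649 to 10419647, with 28.4% to 43.6% of them on Rn45s, a ribosomal RNA entry. A count of 3, taken as the floor of a library, was worth 0.273 to 0.432 CPM, a limit that covers counting error only, since reads carried no molecular identifiers. NMO_Bl_mono replicate 3 stood apart: 22.3% of 2522 genes at 50 CPM or more in both other libraries of its group were at 3 counts or fewer there, and 6 of the 10 members were. The next highest share was 8.26% in NMO_Br_mono replicate 2, which had 3 members at the floor, and Nor_Bl_mono replicate 3 had 6 members at the floor with a share of 1.94%. The labels name each library as a pool of mice but do not tie pools across groups, and p-values measure the spread between these pools. In sorted bulk samples a lower share of cells that express a gene and less RNA in each cell cannot be told apart.

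The standard errors of the members followed their level, as the plot of standard error against mean CPM shows. For NMO_Br_mono against NMO_Bl_mono the log2 difference had a standard error of 0.32 for Fth1 and 0.51 for Ftl1. For the other 7 members tested it ran from 1.27 (Slc11a1) to 3.87 (Cd163). The median was 2.29 over all genes tested, 0.38 over the 170 genes with a mean of at least 500 CPM and 2.32 below that. A standard error smaller than that of Fth1 was found for 0.346% of genes, and smaller than that of Ftl1 for 3.40%. For these 7 the standard error was thus larger than a log2 difference of 1.

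**Figure D1:**
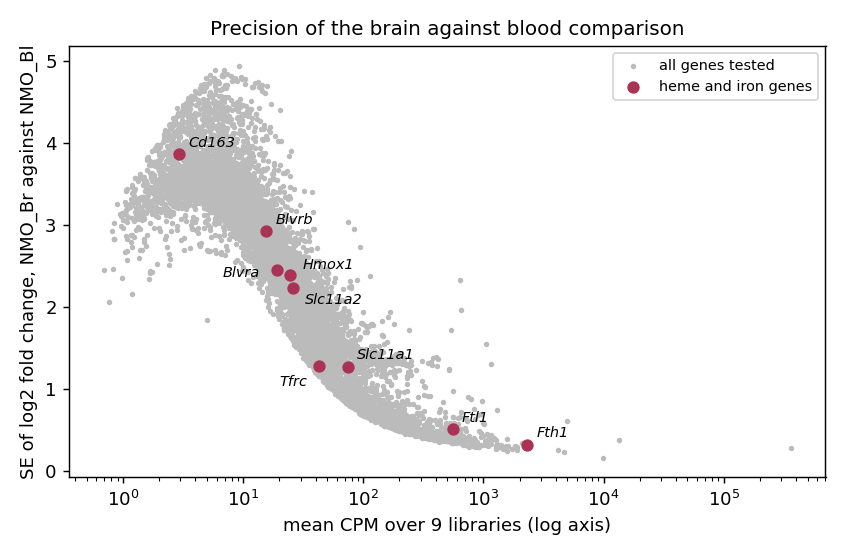
Standard error of the log2 difference NMO_Br_mono against NMO_Bl_mono (vertical axis) against the mean CPM over the 9 libraries (horizontal log axis) for all genes tested in grey, with the 9 members tested in red. Fth1 and Ftl1 lie at the lower right with standard errors of 0.32 and 0.51, and the other members lie between 1.27 and 3.87.

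Ferritin storage was the role with the most message. Fth1, the heavy subunit, which oxidizes iron as it enters the shell (chr19:9980598-9985098, plus strand), stood at 1732, 2065 and 1133 CPM in Nor_Bl_mono, at 1950, 2235 and 1001 CPM in NMO_Bl_mono and at 3183, 4532 and 3086 CPM in NMO_Br_mono. The lowest brain library was above the highest blood library, and the blood groups overlapped. The group means were 1643 ± 472 in Nor_Bl_mono, 1729 ± 646 in NMO_Bl_mono and 3600 ± 808 CPM in NMO_Br_mono (SD, n = 3 each). Fth1 took 0.121% to 0.225% of the counts of a blood library and 0.270% to 0.489% of those of a brain library.

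The fitted log2 difference of Fth1 was 1.06 ± 0.32 (SE) for NMO_Br_mono against NMO_Bl_mono (edgeR's quasi-likelihood test, adjusted p = 0.497), at rank 112 of 10107 genes by p. Against both blood groups it was 1.09 ± 0.27 (adjusted p = 0.135), and against Nor_Bl_mono 1.13 ± 0.32 (adjusted p = 0.379). Between the blood groups it was 0.07 ± 0.32 (adjusted p = 1). With 22 alternative settings the unadjusted p against both blood groups was under 0.05 in all 22, and the adjusted p was under 0.05 in 8 of them, with a range from 1.3e-06 to 0.518. Against NMO_Bl_mono the unadjusted p was under 0.05 in 22 of 23 and the adjusted p in 2 of 23. The exception was the fit that left out both NMO_Bl_mono replicate 3 and NMO_Br_mono replicate 2, where the difference was 0.60 (adjusted p = 0.736 by the same test).

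Ftl1, the light subunit, which lines the iron core (chr7:45457944-45459884, minus strand), stood at 325, 423 and 665 CPM in Nor_Bl_mono, at 404, 554 and 124 CPM in NMO_Bl_mono and at 1128, 739 and 643 CPM in NMO_Br_mono. The brain libraries were all above the NMO blood libraries, but the lowest of them was under the highest normal blood library. The means were 471 ± 175, 361 ± 218 and 837 ± 257 CPM in that order of groups (SD, n = 3 each). The log2 difference was 1.21 ± 0.51 for NMO_Br_mono against NMO_Bl_mono (edgeR's test, adjusted p = 0.802) and 1.02 ± 0.42 against both blood groups (adjusted p = 0.618). Against Nor_Bl_mono it was 0.83 ± 0.50 (adjusted p = 0.877), and between the blood groups -0.39 ± 0.50 (adjusted p = 1). Ftl1 no longer passed the unadjusted threshold against NMO_Bl_mono without NMO_Br_mono replicate 1, without NMO_Bl_mono replicate 3, with only the groups compared or without the 2 libraries that had most genes at the floor, and passed it in the other 19 of 23 settings. The difference was 0.816 or more in all 23. It also missed that threshold against both blood groups without NMO_Br_mono replicate 1 or without Nor_Bl_mono replicate 1.

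The ratio of Fth1 to Ftl1 counts within a library, which gives no measure of their relative amount, was 2.82, 6.14 and 4.80 in NMO_Br_mono. It was 5.33, 4.88 and 1.70 in Nor_Bl_mono and 4.82, 4.04 and 8.09 in NMO_Bl_mono. The brain ratios lay within the range of the blood ratios. Reads that aligned to several places were counted, and ferritin genes have many processed copies in the genome, so part of these counts may stem from copies. A single listed look-alike of Fth1 had 0 counts, and none of Ftl1 was listed.

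**Figure D2:**
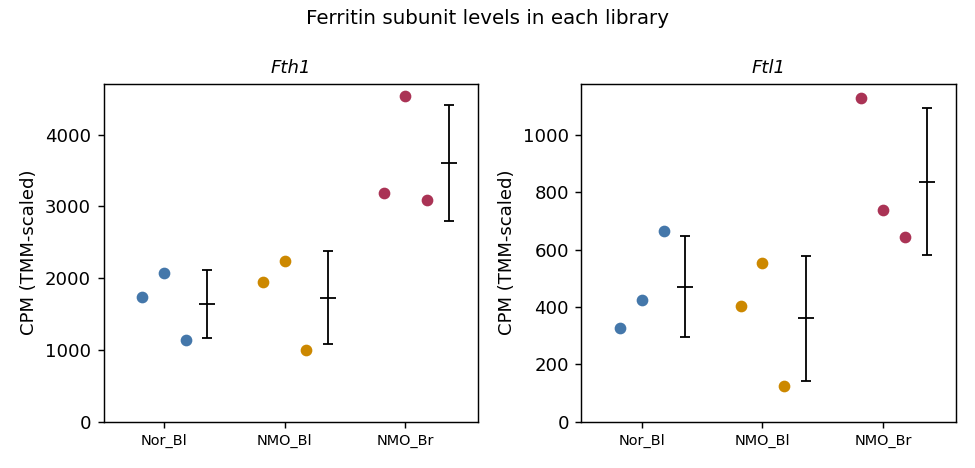
CPM (vertical axis, from 0) of Fth1 and Ftl1 in each library (points, 3 per group) with the mean and SD of each group (black bar). For Fth1 the 3 brain libraries, 3086 to 4532 CPM, lie above all blood libraries, and for Ftl1 they lie above the NMO blood libraries and overlap with the normal ones.

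Heme breakdown genes had higher means in brain than in blood monocytes, and none of the 3 passed the unadjusted threshold. Hmox1, heme oxygenase 1, which opens the heme ring (chr8:75093621-75100589, plus strand), stood at 10.5, 28.0 and 0 CPM in Nor_Bl_mono, at 23.1, 6.09 and 0 CPM in NMO_Bl_mono and at 76.2, 17.2 and 59.4 CPM in NMO_Br_mono. Brain replicates 1 and 3 were above all blood libraries, and brain replicate 2 was within the range of blood. The means were 12.8 ± 14.2, 9.73 ± 11.98 and 50.9 ± 30.4 CPM (SD, n = 3 each). The log2 difference for NMO_Br_mono against NMO_Bl_mono was 2.39 ± 2.39 (edgeR's test, adjusted p = 1), and against both blood groups 2.19 ± 1.89 (adjusted p = 1.00). With single libraries left out the first ran from 1.81 to 4.05, the highest without NMO_Bl_mono replicate 1.

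Blvra, biliverdin reductase A, which makes bilirubin (chr2:127070665-127097084, plus strand), stood at 10.1, 7.504 and 0 CPM in Nor_Bl_mono, at 34.2, 13.9 and 0 CPM in NMO_Bl_mono and at 58.5, 12.5 and 34.9 CPM in NMO_Br_mono. The brain libraries were all above the normal blood libraries and overlapped with the NMO blood libraries. The log2 difference was 1.14 ± 2.46 for NMO_Br_mono against NMO_Bl_mono (adjusted p = 1 by edgeR's test) and 2.59 ± 2.57 against Nor_Bl_mono (adjusted p = 1). With single libraries left out the first ran from 0.56 to 2.33, lowest without NMO_Br_mono replicate 1 or NMO_Bl_mono replicate 3 and highest without NMO_Bl_mono replicate 1.

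Blvrb, biliverdin reductase B, which also reduces flavins (chr7:27447978-27466144, plus strand), had counts in 1 of 3 normal blood libraries, with 0, 2.11 and 0 CPM. It stood at 15.6, 35.6 and 0 CPM in NMO_Bl_mono and at 12.8, 0 and 74.1 CPM in NMO_Br_mono, so that both NMO groups held a library at 0 and libraries above all normal ones. For NMO_Bl_mono against Nor_Bl_mono the log2 difference was 4.56 ± 3.37 (adjusted p = 1 by edgeR's test), and for NMO_Br_mono against NMO_Bl_mono it was 0.76 ± 2.92 (adjusted p = 1). With single libraries left out the first ran from 3.43 to 10.3.

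The first 2 enzymes went together across libraries: Pearson's r of log2(CPM + 1) between Hmox1 and Blvra was 0.937 over the 9 libraries. All points share their library, and both genes were at 0 in Nor_Bl_mono replicate 3 and NMO_Bl_mono replicate 3.

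Of the uptake receptors, Tfrc, the transferrin receptor (chr16:32608920-32632794, plus strand), was counted in every library. It stood at 17.6, 27.4 and 19.7 CPM in Nor_Bl_mono, at 20.4, 25.4 and 69.9 CPM in NMO_Bl_mono and at 17.6, 44.3 and 141 CPM in NMO_Br_mono. The 3 groups shared the range from 20.4 to 27.4 CPM, and the upper end of each NMO group was a single library. The means were 21.6 ± 5.16, 38.6 ± 27.3 and 67.8 ± 65.1 CPM (SD, n = 3 each). The log2 difference was 0.81 ± 1.28 for NMO_Br_mono against NMO_Bl_mono (adjusted p = 1 by edgeR's test) and turned to -0.30 without NMO_Br_mono replicate 3.

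Cd163, the receptor by which macrophages take up hemoglobin bound to haptoglobin (chr6:124304656-124330527, plus strand), had counts in 1 library of each group. These were 5.39 CPM in Nor_Bl_mono replicate 2, 2.52 CPM in NMO_Bl_mono replicate 1 and 18.6 CPM in NMO_Br_mono replicate 3. In the other 6 libraries it was at 0. The log2 difference of 2.87 ± 3.87 between NMO_Br_mono and NMO_Bl_mono (adjusted p = 1 by edgeR's test) became -5.96 without NMO_Br_mono replicate 3, so no direction can be given.

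Among the metal transporters, Slc40a1, ferroportin, the iron exporter (chr1:45908068-45926523, minus strand), was at 0 counts in all 6 blood libraries. In NMO_Br_mono it stood at 39.4, 0 and 80.0 CPM, that is 348, 0 and 804 counts. Counts were thus present in 2 of the 3 brain libraries, and brain replicate 2 was at 0 like the blood libraries. The brain mean of 39.8 ± 40.0 CPM (SD, n = 3) was at least 117-fold higher than the mean floor of 3 counts per library in NMO_Bl_mono. Without brain replicate 3 the brain mean was 19.7 CPM and the bound 57.9-fold. The filter on low counts asks for enough libraries with counts and removed Slc40a1, so it was not among the 9 members tested. Each fit that kept it did so through its 2 brain libraries with counts alone, so only the higher direction was open to it. With no filter its adjusted p by edgeR's test was 0.479 against NMO_Bl_mono and 0.0265 against both blood groups. The filter kept it in 7 of the 9 fits that left out a single library, where the adjusted p ran from 0.675 to 1 against NMO_Bl_mono and from 0.17 to 0.55 against both blood groups.

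Slc11a1, the divalent metal transporter of the phagosome, also called Nramp1 (chr1:74375195-74386062, plus strand), stood at 58.1, 79.3 and 88.2 CPM in Nor_Bl_mono, at 51.1, 44.1 and 0.182 CPM in NMO_Bl_mono and at 154, 61.5 and 130 CPM in NMO_Br_mono. The NMO blood libraries lay below both other groups without overlap, and brain replicate 2 fell within the normal blood range. The means were 75.2 ± 15.4, 31.8 ± 27.6 and 115 ± 47.8 CPM (SD, n = 3 each). The log2 difference was 1.86 ± 1.27 for NMO_Br_mono against NMO_Bl_mono (adjusted p = 1 by edgeR's test), -1.24 ± 1.25 for NMO_Bl_mono against Nor_Bl_mono (adjusted p = 1) and 0.61 ± 1.24 for NMO_Br_mono against Nor_Bl_mono (adjusted p = 1). The value of 0.182 CPM was 2 counts in NMO_Bl_mono replicate 3, the library that stood apart. Without that library and NMO_Br_mono replicate 2 the first difference was 1.59 (adjusted p = 0.422 by edgeR's test). The first difference passed the unadjusted threshold in that setting and with limma-voom, 2 of 22 settings, and the adjusted threshold in 0. With single libraries left out the difference between the blood groups ran from -1.76 to -0.657.

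Slc11a2, DMT1, which moves iron out of endosomes (chr15:100387898-100425072, minus strand), went another way. It stood at 10.5, 7.40 and 0 CPM in Nor_Bl_mono, at 21.7, 34.9 and 89.9 CPM in NMO_Bl_mono and at 0, 23.3 and 44.9 CPM in NMO_Br_mono. It was the only member tested whose mean was highest in NMO blood, at 48.8 ± 36.2 CPM beside 5.97 ± 5.40 in Nor_Bl_mono and 22.7 ± 22.4 in NMO_Br_mono (SD, n = 3 each). The log2 difference was 3.03 ± 2.39 for NMO_Bl_mono against Nor_Bl_mono (adjusted p = 1 by edgeR's test) and -1.10 ± 2.23 for NMO_Br_mono against NMO_Bl_mono (adjusted p = 1). The latter ran from -2.05 to -0.30 with single libraries left out, the ends being the fits without NMO_Br_mono replicate 3 and without NMO_Bl_mono replicate 3.

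**Figure D3:**
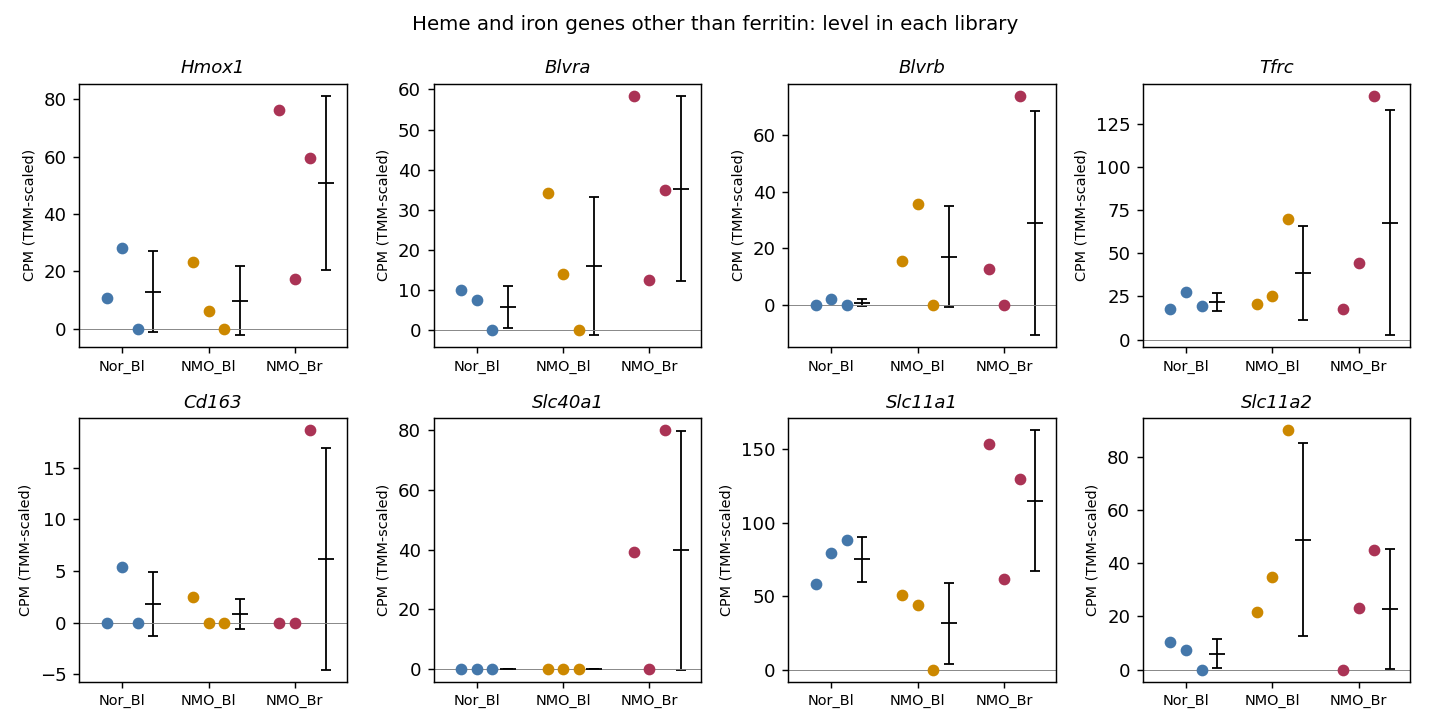
CPM (vertical axes, each with its own scale) of the 8 members other than ferritin in each library (points, 3 per group in the order of replicate numbers) with the mean and SD of each group (black bar; SD bars can reach under 0). Slc40a1 has counts only in 2 brain libraries, and for Hmox1, Blvra and Slc11a1 brain replicate 2 is the lowest of its group.

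**Figure D4:**
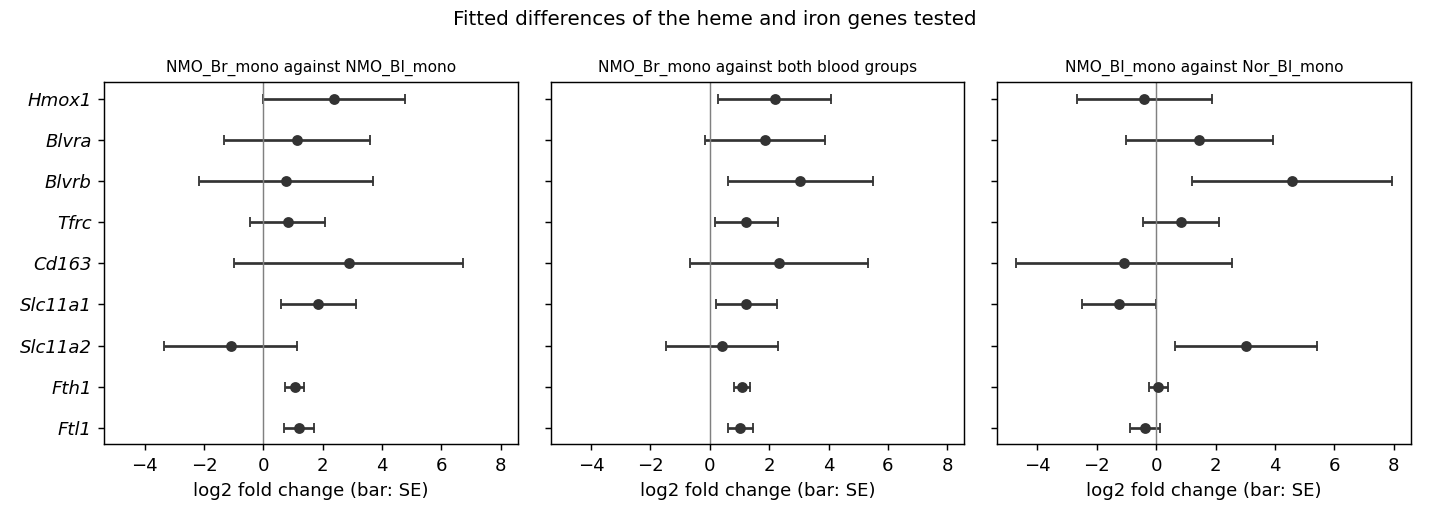
Fitted log2 fold changes of the 9 members tested (points) with their standard errors (bars) for NMO_Br_mono against NMO_Bl_mono, NMO_Br_mono against both blood groups and NMO_Bl_mono against Nor_Bl_mono. Fth1 and Ftl1 have the shortest bars and lie at 1.02 to 1.21 in both brain comparisons, and at 0.07 and -0.39 between the blood groups.

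The members fell into patterns across the libraries, given here as the genes with the highest Pearson r of log2(CPM + 1) over the 9 libraries among genes with a mean of at least 50 CPM in a group. Fth1 was most like Lmnb2 (0.980), Gfer (0.979) and P2ry6 (0.962). Ftl1 was most like Psap (0.968) and Ctsa (0.967), which encode lysosomal proteins, and Emilin2 (0.966). Slc11a1 was most like Ccl9 (0.985), Ctnna1 (0.984) and Cebpa (0.984), and its r with Ftl1 was 0.884. In NMO_Bl_mono replicate 3, the library that stood apart, Slc11a1 was at 0.182 CPM, beside 44.1 to 154 CPM in the other libraries. Ftl1 was also lowest in that library, at 124 CPM. That point lies far from the rest for Slc11a1 on the log2 scale, and r without it was not computed. Hmox1 was most like Ier3 (0.969), Cd300lf (0.956) and Bsg (0.953), and Blvra like P4ha1 (0.968), Cd300lf (0.966) and Mea1 (0.964). For Slc11a2 the highest was 1810013L24Rik (0.941), for Tfrc B230219D22Rik (0.858), for Blvrb Knop1 (0.818) and for Cd163 Rbbp4 (0.781). Such values describe 9 points that share their library, and they were the highest of 4114 or 4115 genes searched.

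The wider set of heme and iron genes had 62 genes in 7 lists, of which 60 were listed and 47 tested. In NMO_Br_mono against NMO_Bl_mono 0 passed the adjusted threshold, 1 was higher at the unadjusted threshold (1.48% of all genes), 30 of the 47 were above 0 (51.4% of all genes) and the median was 0.46 on the log2 scale. Against both blood groups 4 were higher at the unadjusted threshold (2.62% of all genes), and between the blood groups 1 was higher (0.465%). By list, the counts above 0 in NMO_Br_mono against NMO_Bl_mono were 4 of 6 for heme capture and transport, 3 of 7 for heme synthesis and 5 of 6 for iron uptake, reduction and export. They were 4 of 6 for iron sensing and ferritin turnover, 3 of 6 for mitochondrial iron, 5 of 8 for control genes and 6 of 8 for other targets of the stress factor NRF2. The median log2 difference ran from -0.39 for heme synthesis to 2.0 for iron uptake, reduction and export.

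Lrp1, the receptor for hemopexin-bound heme, stood at 125, 207 and 204 CPM in Nor_Bl_mono, at 233, 246 and 198 CPM in NMO_Bl_mono and at 503, 433 and 304 CPM in NMO_Br_mono, every brain library above every blood library. Its log2 difference was 1.04 ± 0.37 against both blood groups (adjusted p = 0.566 by edgeR's test) and 0.88 ± 0.45 against NMO_Bl_mono (adjusted p = 0.802). Lcn2, which binds the iron carriers of bacteria, was at 0, 0.106 and 0 CPM in Nor_Bl_mono, at 23.9, 46.9 and 0 CPM in NMO_Bl_mono and at 54.3, 144 and 70.8 CPM in NMO_Br_mono. All of its brain libraries lay above blood, and it was the gene of the wider set past the unadjusted threshold between the blood groups (adjusted p = 1 by edgeR's test; adjusted p = 0.199 for brain against both blood groups). Normal blood was at the floor throughout for Lcn2, so the gene passed the filter on low counts through NMO libraries alone. Only the higher direction against Nor_Bl_mono was open to it. Lcn2 is also abundant in neutrophils, whose summed markers ranged from 373 to 1841 CPM in brain and from 61.8 to 282 CPM in blood. Without S100a8 and S100a9 these sums were 146, 368 and 289 CPM in brain and 0.0909 to 202 CPM in blood. Of the 8 neutrophil markers tested, 7 had a log2 difference above 0 in NMO_Br_mono against NMO_Bl_mono. At the unadjusted threshold 2 were higher (Ngp and Mpo; 1.48% of all genes) and 1 was lower (Retnlg; 3.84%). Ngp stood at 57.8, 245 and 102 CPM in brain and at 0 to 27.5 CPM in blood. Mpo was at 0 in all NMO blood libraries and stood at 0, 53.3 and 118 CPM in brain. Only the higher direction against NMO_Bl_mono was thus open to Mpo, and 1 normal blood library held 10.5 CPM. Retnlg was at 0 in all brain libraries, so it passed the filter on low counts through blood alone, at 0 to 125 CPM. The sort was gated to leave out Ly6G+ cells. The part of neutrophils in the Lcn2 result was not tested.

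Epas1, the hypoxia factor HIF2A, which drives genes of iron uptake, stood at 10.5, 0 and 0 CPM in Nor_Bl_mono, at 2.24, 0 and 0 CPM in NMO_Bl_mono and at 40.9, 57.3 and 197 CPM in NMO_Br_mono (adjusted p = 0.802 by edgeR's test against NMO_Bl_mono). Epas1 is also a gene of endothelium, whose markers are given with Slc40a1. Mcoln1, the iron channel of lysosomes, had 13.5, 0 and 5.97 CPM in brain and 1.85 CPM in a single blood library (adjusted p = 0.618 against both blood groups).

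Of the 8 control genes Epas1 alone was higher at the unadjusted threshold in a brain comparison (1.48% of all genes against NMO_Bl_mono and 2.62% against both blood groups). Nfe2l2, which encodes NRF2, the activator of Hmox1 and ferritin genes, stood at 78.1, 62.7 and 37.9 CPM in Nor_Bl_mono, at 67.7, 54.2 and 0 CPM in NMO_Bl_mono and at 173, 85.6 and 214 CPM in NMO_Br_mono. Its brain libraries were all above blood, with a log2 difference of 1.68 ± 1.14 against both blood groups (adjusted p = 0.884 by edgeR's test). Bach1, the heme-sensing repressor of the same genes, overlapped in all groups, at 71.2, 105 and 119 CPM in Nor_Bl_mono, 110, 61.8 and 115 CPM in NMO_Bl_mono and 120, 104 and 118 CPM in NMO_Br_mono. Its log2 difference against both blood groups was 0.24 ± 0.59 (adjusted p = 1.00).

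Hmox2, the constant heme oxygenase, stood at 20.9, 16.5 and 13.4 CPM in Nor_Bl_mono, at 41.7, 49.8 and 0 CPM in NMO_Bl_mono and at 110, 47.1 and 87.2 CPM in NMO_Br_mono, with a log2 difference of 1.84 ± 1.36 against both blood groups (adjusted p = 0.960 by edgeR's test). Aco1 and Ireb2, which encode the iron regulatory proteins, and Ncoa4, which carries ferritin to the lysosome, had libraries at 0 in brain and in NMO blood. Their log2 differences against both blood groups were -0.53 ± 2.86, -0.75 ± 2.31 and 0.40 ± 2.35 (adjusted p = 1.00 for each by edgeR's test). In NMO_Br_mono Aco1 stood at 24.1, 0 and 0 CPM, Ireb2 at 34.9, 0 and 0.696 CPM and Ncoa4 at 37.2, 0 and 6.57 CPM.

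Monocyte markers were counted in every library, with a summed level of 4046 to 7297 CPM in blood and 4432 to 8466 CPM in brain. Of these 10 genes 2 were lower in NMO_Br_mono than in NMO_Bl_mono at the unadjusted threshold (Ly6c2 and Ptprc; 3.84% of all genes) and 0 were higher (1.48%). Ly6c2 stood at 437, 59.45 and 199 CPM in brain and at 462 to 933 CPM in blood. Against both blood groups 2 were lower (4.26%) and 2 higher (Ccr2 and Vcan; 2.62%). Of 11 erythroid genes listed, 5 of the 6 tested were lower in NMO_Br_mono than in NMO_Bl_mono at the unadjusted threshold (3.84% of all genes). Among these 5, Hba-a2 and Bpgm were at 0 in all brain libraries. They passed the filter on low counts through blood alone, so only the lower direction was open to them. The summed level of the list was 925 to 5441 CPM in the 6 blood libraries and 402, 1.14 and 58.5 CPM in the 3 brain libraries. Hbb-bs, a beta globin, stood at 981, 296 and 476 CPM in Nor_Bl_mono, at 1417, 399 and 1052 CPM in NMO_Bl_mono and at 27.0, 0.190 and 4.78 CPM in NMO_Br_mono (log2 difference -6.13 against both blood groups, adjusted p = 0.0397 by edgeR's test). The 3 libraries with the most Fth1 and the lowest erythroid sums were the brain group, so this match only restates the group difference. The part of erythroid RNA in the Fth1 levels was not tested. Platelet markers also ran lower in brain, at 0 to 39.8 CPM beside 406 to 2780 CPM in blood, as did markers of NK, T and B cells, at 39.7 to 327 CPM beside 1563 to 2403 CPM.

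Markers of microglia, which were gated out through P2ry12 and also hold ferritin, summed to 976, 945 and 831.5 CPM in NMO_Br_mono and to 0.0909 to 396 CPM in blood. Without Cx3cr1, which monocytes also hold, the sums were 432, 648 and 495 CPM in brain and 0 to 74.1 CPM in blood. P2ry12, the gate's marker, overlapped, at 23.8, 69.7 and 9.95 CPM in brain and 0 to 43.4 CPM in blood. Of the 8 tested, 4 were higher in NMO_Br_mono than in NMO_Bl_mono at the unadjusted threshold (Siglech, Sparc, Olfml3 and Fcrls; 1.48% of all genes). Olfml3 and Fcrls were at 0 in all blood libraries. They passed the filter on low counts through brain alone, so only the higher direction was open to them. Siglech stood at 0, 83.1 and 39.5 CPM in brain. It was at 0.14, 0 and 0 CPM in NMO_Bl_mono, so only the higher direction was open to it in that comparison. Tmem119 was at 78.4, 0 and 20.99 CPM in brain and at 0 in blood. The markers of border-associated macrophages, Cd163 among them, summed to 267 to 519 CPM in brain and 108 to 567 CPM in blood, most of the latter being Pf4, which platelets also hold. Without Pf4 the sums were 497, 388 and 267 CPM in brain and 0 to 45.7 CPM in blood. Clec4n stood at 321, 156 and 124 CPM in brain and at 0 to 20.4 CPM in blood, Mrc1 at 25.3, 62.1 and 37.0 CPM beside 0 to 15.4 CPM, and Ms4a7 at 25.8, 51.9 and 14.5 CPM beside 0 to 6.96 CPM. Cbr2 overlapped, at 12.1, 82.9 and 0 CPM in brain and 0 to 27.9 CPM in blood. Lyve1 stood at 0, 34.7 and 0 CPM in brain and at 0 to 0.102 CPM in blood. Folr2 was at 0 in every library. Of the 6 tested, 1 was higher in NMO_Br_mono than in NMO_Bl_mono at the unadjusted threshold (Clec4n, 1.48% of all genes). Another 1 was lower (Pf4, 3.84% of all genes). The part of these cells in the ferritin, Cd163 and Slc40a1 levels was not tested.

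Endothelial markers summed to 222, 115 and 747 CPM in NMO_Br_mono and to 5.62 to 116 CPM in blood. Cldn5, a tight junction gene of endothelium, stood at 33.0, 0 and 60.0 CPM in NMO_Br_mono and Flt1 at 87.5, 0 and 554.5 CPM, and Cldn5 was at 0 in all blood libraries. Stab1, a receptor of macrophages and of some endothelium, stood at 113, 0.0951 and 72.6 CPM in NMO_Br_mono and at 0 in blood. Of the 5 endothelial genes Cldn5, Flt1 and Kdr were at 0 in brain replicate 2, where Slc40a1 was at 0 and Stab1 near 0. The other endothelial genes were highest of the brain group there, Pecam1 at 55.6, 82.6 and 29.7 CPM and Cdh5 at 17.8, 31.96 and 5.17 CPM in brain replicates 1 to 3. The sort was for CD45+CD11b+ cells, and how fully it left out endothelial cells is not known from these counts. The part of any of these cells in the Slc40a1 counts was not tested.

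**Figure D5:**
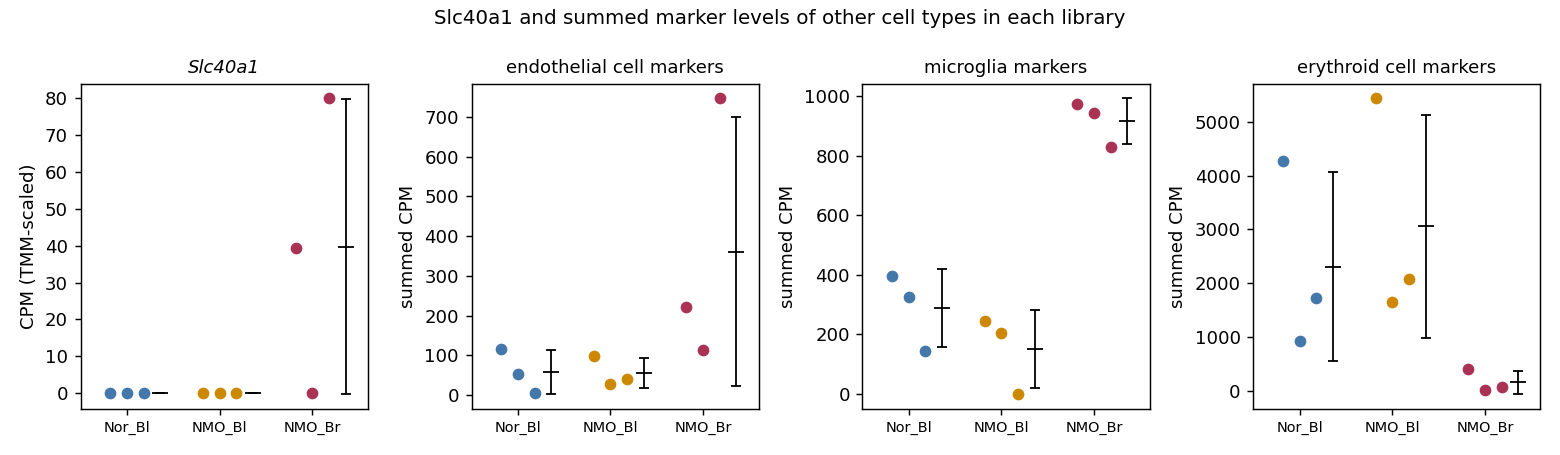
CPM of Slc40a1 and the summed CPM of endothelial, microglia and erythroid markers (vertical axes, each with its own scale) in each library (points, 3 per group in the order of replicate numbers) with the mean and SD of each group (black bar). Slc40a1 and the endothelial sum are highest in brain replicate 3 and lowest of the brain group in replicate 2, microglia sums are highest in brain, and erythroid sums are lowest in brain.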

How the data were processed

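The authors sequenced QuantSeq 3ʹ libraries single-end on a NextSeq, aligned reads with Bowtie2 and counted them, multiple alignments included, with bedtools coverage (build mm10 per the labels; versions and annotation not given in the sources used here). They deposited raw counts for 23282 entries per library; 35 symbols appeared more than once, and the entry with most counts was kept. From these counts, 10107 genes that passed filterByExpr were tested in R 4.3.3 with edgeR 4.0.16 (glmQLFit, glmQLFTest, TMM factors, group as the only term, all 9 libraries in 1 fit, Benjamini-Hochberg adjustment). CPM use TMM-scaled library sizes, and group values are means ± SD. Depth was 7584649 to 10419647 counts per library, and the floor of 3 counts covers counting error only, while SEs and SDs cover the spread between libraries. Comparisons were brain against NMO blood, against normal blood and against both, and NMO against normal blood.

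Every member is described; genes of the other lists are named when past the unadjusted threshold in a brain comparison, with Hmox2, Nfe2l2, Bach1, Ireb2, Aco1, Ncoa4 and Lrp1 always named, while marker lists are given mostly as sums and counts and 1 gene of the wider lists is not reported here. Likeness was Pearson's r of log2(CPM + 1). The members and lists were chosen with earlier results of these data known. Alternatives were other scalings, filters and tools (DESeq2 1.42.0, limma 3.58.1 voom), a replicate block and left-out libraries; the fits without 2 libraries at once, the marker sums without leading genes and the Slc40a1 bound without a brain library were chosen after seeing the data. The fit was also run on simulated data, and no outcome of that run is given here.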

Additional observations from a re-analysis of the deposited data

How the results depend on the processing

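Members with an adjusted p under 0.05: against NMO_Bl_mono and against Nor_Bl_mono, 0 in the fit reported and 1 (Fth1) with no filter and with the replicate block. Against both blood groups, 0 became 1 (Fth1) with RLE factors, library sizes alone, the replicate block, the robust fit, DESeq2 and limma-voom, 2 (Fth1 and Slc40a1, adjusted p = 0.0265) with no filter, and 0 to 1 with single libraries left out, 1 without NMO_Bl_mono replicate 2. At the unadjusted threshold, the 2 members against NMO_Bl_mono became 1 with only the groups compared and 1 to 3 with single libraries left out; the 1 against Nor_Bl_mono became 2 with no filter, only the groups compared and voom, 3 without both blood replicates 3, 4 without the 2 libraries with most missing genes and 1 to 3 with single libraries left out; the 2 against both became 4 with voom and 4 without those 2 libraries, and 1 to 3 with single libraries left out. Between the blood groups, 0 became 1 (Blvrb) with voom and without those 2 libraries. Slc40a1 enters the fit, and these counts, with no filter and when some libraries are left out, through its 2 brain libraries with counts alone. Without the 2 libraries with most missing genes, higher calls over all genes were 469 against both, 444 against Nor_Bl_mono and 116 between the blood groups. In the fit reported they were 265, 177 and 47. Against Nor_Bl_mono these higher calls were 275 of 14442 genes with no filter and 234 of 8668 with only the groups compared. Without both blood replicates 3 they were 298 of 11152 there. Against NMO_Bl_mono they were 107 of 8751 genes with only the groups compared, beside 150 of 10107 in the fit reported. With single libraries left out, 115 to 185 were higher against NMO_Bl_mono, 117 to 376 against Nor_Bl_mono and 212 to 459 against both.

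Over all genes, adjusted calls against both blood groups rose from 44 to 495 with DESeq2, 181 with no filter and 122 with voom. They were 68 with library sizes alone, 63 with the robust fit, 57 with RLE factors, 47 without NMO_Bl_mono replicate 2 and 34 with the replicate block. With no filter 110 passed against NMO_Bl_mono and 115 against Nor_Bl_mono, and with the replicate block 22 against each. Higher calls at the unadjusted threshold with voom were 556 against both, 438 against Nor_Bl_mono and 347 between the blood groups. voom moved the median of all genes against NMO_Bl_mono from 0.05 to -0.65.

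Directions that turned (log2): with voom, Blvrb against NMO_Bl_mono was -0.64, Slc11a2 -1.44 against Nor_Bl_mono and -2.67 against both; between the blood groups Cd163 was 0.17, Ftl1 0.20 and Hmox1 0.41. With the replicate block Slc11a2 against both was -0.15. Between the blood groups, Ftl1 was 0.36 without both blood replicates 3 and 0.0264 without the 2 with most missing genes, and Hmox1 0.19 without the latter. With single libraries left out, ranges crossed 0 for Tfrc (-0.30 to 1.58), Cd163 (-5.96 to 8.88) and Blvrb (-1.40 to 1.91) against NMO_Bl_mono; for Fth1 (-0.16 to 0.35), Cd163 (-7.10 to 5.97), Ftl1 (-0.84 to 0.03) and Hmox1 (-2.07 to 0.89) between the blood groups; for Cd163 against Nor_Bl_mono (-7.04 to 8.83); and against both for Slc11a2 (-0.54 to 1.00) and Cd163 (-6.50 to 5.85). The cause was not tested. The replicate block rests on shared numbers only: deviations of same-numbered libraries correlated between -0.01 and 0.12. Cd163 was at 0 in 6, Slc40a1 in 7 and Blvrb in 4 of the 9 libraries; levels under 0.273 to 0.432 CPM were not detectable at this depth.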
